A study of Homo sapiens with 16 samples.

Results

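The B cell programme genes described here were PAX5, BCL6, SPIB, CD79B, FCER2, CR2, MS4A1, CIITA and BACH2, 9 of the 19970 protein-coding gene records on chromosomes 1 to 22 and X. They were chosen by name as genes that B cells use and plasma cells switch off, and the choice was made with earlier results of these data known. The marks H3K27me3 and H3K4me3 had been mapped in TKO cells of the KMS-11 myeloma line by ChIPmentation, a form of ChIP-seq whose libraries are made by transposase on the precipitated chromatin. The cells expressed the D1240A form of NSD2, its F1295A form, no form that the labels name (plain TKO cells, written TKO), or wild type NSD2 (WT). D1240A and F1295A are substitutions of a single residue. All of these cells shared the labelled cell type, plasma cell, and the labelled genotype, WHSC1(+/-) on KMS-11. WHSC1 is another name of NSD2. How each form was brought into the cells, and whether a line was a single clone, is not given in the sources used here. For every form, H3K27me3 was measured in 2 samples and H3K4me3 in 1, and an IgG control of each form was not analysed here.

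PAX5 is the factor that holds B cell identity. The other genes encode further regulators (BCL6, SPIB, BACH2, CIITA), a signalling chain of the antigen receptor (CD79B) and surface proteins of mature B cells (FCER2, CR2, MS4A1). When a B cell becomes a plasma cell, the repressor PRDM1, also called Blimp-1, shuts down much of this programme, PAX5, SPIB, CIITA and BCL6 included. H3K27me3 is written by Polycomb repressive complex 2 and lies over silent genes, often in wide domains. H3K4me3 lies at promoters that are active or ready for use. NSD2 methylates H3K36, and H3K36 methylation hinders Polycomb repressive complex 2, which is why H3K27me3 is of interest in myeloma with the t(4;14) translocation, where NSD2 is overexpressed.

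The files hold 8 lists of peaks, with both H3K27me3 samples of a form in the same list. No difference between forms below therefore had a replicate check, and no test between forms was possible. The H3K27me3 lists held 2188 peaks in D1240A, 2083 in F1295A, 5881 in TKO and 3790 in WT, and the H3K4me3 lists 7396 to 8239 peaks. Read depth is unknown, and a signal under a list's threshold cannot be told from none. A gene was called marked where a peak met its RefSeq record or the 10 kb on either side by at least 1 bp. Of 8 plasma cell markers, 6 had H3K4me3 in D1240A (49.2% of all genes), 7 in F1295A (52.1%), 6 in TKO (47.5%) and 7 in WT (51.4%), and CD38 had neither mark in any form. None of the 5 T cell and 3 NK cell markers had either mark, as was so of 35.8% of all genes, while LYZ and CD14 of the 4 myeloid markers had H3K4me3 in their windows and not within 1 kb of a start site. The other myeloid markers, CSF1R and S100A8, had H3K27me3. It met 1 of the 4 in D1240A (9.36% of all genes), 2 in F1295A (9.93%), 2 in TKO (18.4%) and 2 in WT (16.1%). IRF4, PRDM1 and XBP1, the factors that drive the plasma cell programme, carried H3K4me3 and no H3K27me3 in every form. SDC1, the gene of the plasma cell surface protein CD138, carried H3K27me3 in every form and H3K4me3 in F1295A and WT only. SLAMF7, another surface protein gene of plasma cells, had H3K27me3 over 0 kb in D1240A, 0 kb in F1295A, 10.3 kb in TKO and 5.64 kb in WT, and no H3K4me3. It was taken from a longer list of 12 plasma cell genes. Of these, H3K27me3 met 1 in D1240A (9.36% of all genes), 1 in F1295A (9.93%), 2 in TKO (18.4%) and 2 in WT (16.1%). H3K4me3 met 9, 10, 9 and 10 of the 12 in the same order, to be read against the H3K4me3 shares above.

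The promoter windows below, 300 bases from 250 bases before the start site, come from RefSeq on GRCh38.p14. They are shown because a peak covered the start site in some forms and not in others, or, for BACH2 and the inner start of FCER2, in all of them. Of the 9 genes, 6 had such a window in the table, and CD79B, MS4A1 and CIITA did not. Capitals mark CG dinucleotides, the CpG sites that are dense in the promoters where both marks are commonly found.
PAX5 (chr9:37034219-37034518, minus strand): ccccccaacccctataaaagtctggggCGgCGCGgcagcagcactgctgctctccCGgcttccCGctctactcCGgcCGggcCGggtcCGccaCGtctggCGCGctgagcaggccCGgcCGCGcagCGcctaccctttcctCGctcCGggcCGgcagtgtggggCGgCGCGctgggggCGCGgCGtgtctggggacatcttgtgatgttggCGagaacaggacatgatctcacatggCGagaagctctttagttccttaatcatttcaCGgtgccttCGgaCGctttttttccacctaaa
BCL6, outer start (chr3:187745419-187745718, minus strand): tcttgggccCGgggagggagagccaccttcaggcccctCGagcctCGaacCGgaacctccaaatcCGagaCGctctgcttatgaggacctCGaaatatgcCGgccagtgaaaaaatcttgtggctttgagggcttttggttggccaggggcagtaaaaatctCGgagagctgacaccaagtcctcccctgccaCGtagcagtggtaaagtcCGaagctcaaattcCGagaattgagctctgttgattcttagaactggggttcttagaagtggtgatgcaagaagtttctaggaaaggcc
FCER2, outer start (chr19:7702082-7702381, minus strand): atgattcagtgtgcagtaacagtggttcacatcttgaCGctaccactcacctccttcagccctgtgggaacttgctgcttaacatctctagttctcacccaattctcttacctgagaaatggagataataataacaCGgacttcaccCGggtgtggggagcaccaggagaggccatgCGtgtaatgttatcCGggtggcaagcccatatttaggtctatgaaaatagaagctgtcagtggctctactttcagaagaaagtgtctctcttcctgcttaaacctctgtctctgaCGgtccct
FCER2, inner start (chr19:7699392-7699691, minus strand): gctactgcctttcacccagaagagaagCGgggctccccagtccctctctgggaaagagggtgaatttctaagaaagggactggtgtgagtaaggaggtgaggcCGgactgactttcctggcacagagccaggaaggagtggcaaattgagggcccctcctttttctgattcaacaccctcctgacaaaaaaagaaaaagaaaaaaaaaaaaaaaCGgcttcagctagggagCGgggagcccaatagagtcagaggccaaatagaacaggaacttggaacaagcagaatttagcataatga
CR2 (chr1:207454078-207454377, plus strand): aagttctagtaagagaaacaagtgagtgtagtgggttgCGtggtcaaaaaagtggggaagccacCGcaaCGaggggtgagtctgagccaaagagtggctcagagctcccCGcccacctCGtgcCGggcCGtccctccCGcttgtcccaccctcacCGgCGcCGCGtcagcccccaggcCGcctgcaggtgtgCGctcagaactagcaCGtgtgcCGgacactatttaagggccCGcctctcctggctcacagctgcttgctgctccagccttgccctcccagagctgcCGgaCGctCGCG
BACH2 (chr6:90296794-90297093, minus strand): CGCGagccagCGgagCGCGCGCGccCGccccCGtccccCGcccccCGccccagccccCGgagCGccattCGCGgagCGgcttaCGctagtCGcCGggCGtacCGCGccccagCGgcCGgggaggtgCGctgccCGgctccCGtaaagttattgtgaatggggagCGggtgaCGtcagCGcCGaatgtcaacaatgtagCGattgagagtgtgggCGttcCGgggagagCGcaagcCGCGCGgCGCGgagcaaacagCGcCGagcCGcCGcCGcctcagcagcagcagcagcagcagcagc

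The windows differed widely in CpG content. BACH2 had 45 CpG sites and stood at the 95.9th percentile of the 22155 promoter windows of protein-coding genes, whose median was 21. PAX5 had 30 sites (72.2th percentile), CR2 had 21 (50.3th) and the outer BCL6 start had 12 (34.0th). FCER2 had the fewest, with 6 sites at its outer start and 4 at its inner start. The PAX5 and SPIB windows held the letters TATAAA on either strand, found in 9.47% of all windows. Both FCER2 windows held CCAAT on either strand, found in 34.6%. These matches describe letters and not bound sites.

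H3K27me3 met 3 of the 9 genes in D1240A, 3 in F1295A, 5 in TKO and 5 in WT, against 9.36%, 9.93%, 18.4% and 16.1% of all 19970 genes in the same order. PAX5, CD79B and FCER2 were met in every form, against 8.34% of all genes. BCL6 was met in WT only of the 4 forms (1.81% of all genes), CR2 in TKO only (4.1%), and SPIB in TKO and WT and in neither mutant (3.78%). MS4A1, CIITA and BACH2 had no H3K27me3 peak in any form, as did 79.5% of all genes. H3K4me3 met 3 of the 9 genes in each list, where 49.2% of all genes had it in D1240A, 52.1% in F1295A, 47.5% in TKO and 51.4% in WT. These were BCL6, CIITA and BACH2 in every form, and the other 6 genes had it in none, where 46.6% of all genes had it in every form and 47.0% in none. Expression was not measured here, so whether any of the 9 was silent in these cells is not known.

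**Figure D1:**
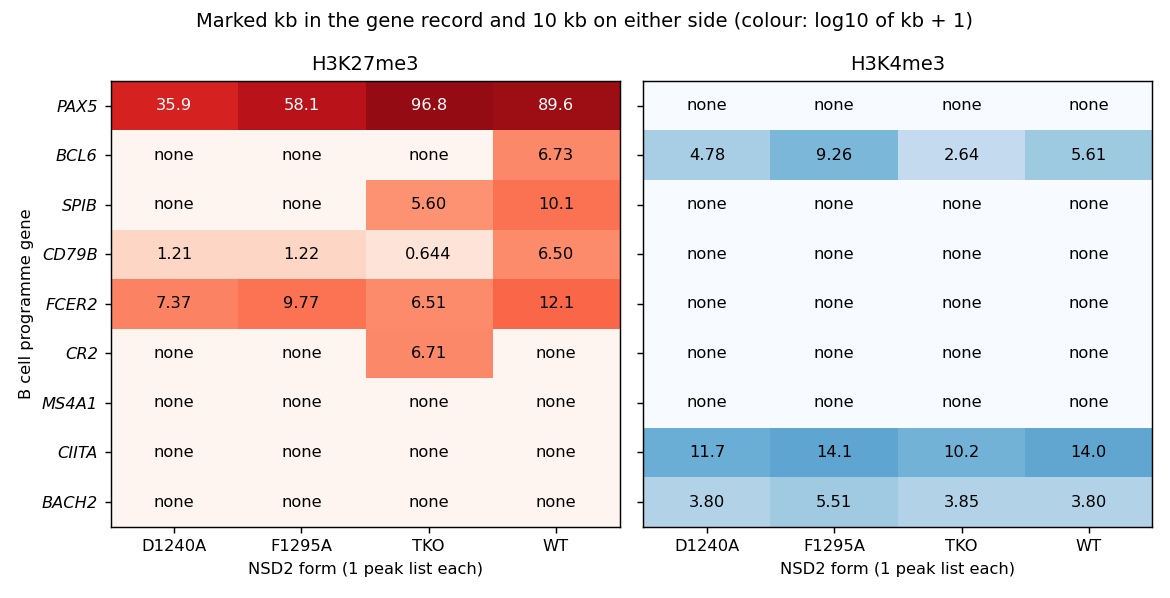
Marked length in kb of each B cell programme gene (rows, the record and 10 kb on either side) in each peak list (columns), with H3K27me3 on the left and H3K4me3 on the right. Each cell prints its value, and colour follows log10 of kb + 1. PAX5 has the longest H3K27me3 coverage in every form, and H3K4me3 is seen at BCL6, CIITA and BACH2.

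PAX5 (chr9:36833269-37034268, 201.0 kb, minus strand) carried by far the longest H3K27me3 coverage in kb of the 9 genes, with more in TKO and WT than in either mutant. Marked length was 35.9 kb in 2 peaks in D1240A, 58.1 kb in 3 peaks in F1295A, 96.8 kb in 8 peaks in TKO and 89.6 kb in 6 peaks in WT. The whole H3K27me3 lists ran in the same order, covering 32.02 Mb in D1240A, 38.8 Mb in F1295A, 66.6 Mb in TKO and 55.7 Mb in WT. The mark covered 17.9% of the record in D1240A, 24.8% in F1295A, 48.2% in TKO and 41.9% in WT. The share was larger in every form at the much shorter FCER2 record, at 55.2%, 73.1%, 48.8% and 46.4% in the same order. Of genes with records at least 100 kb long, 5.13% were met by H3K27me3 in D1240A, 5.79% in F1295A, 14.3% in TKO and 9.34% in WT. These are shares of genes with a peak in the record or its 10 kb flanks, not shares of bases. The covered share of other long records was not computed. The nearest H3K4me3 peak lay 44.76 to 44.97 kb away in every form.

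The far part of the PAX5 record was marked in all forms, and the part near the start site was not. One block lay about 130 kb from the start site and was 11.5 kb wide in D1240A, 15.1 kb in F1295A, 15.1 kb in TKO and 11.5 kb in WT. A longer block behind it was 24.4 kb wide in D1240A, 34.7 kb in F1295A, 35.1 kb in TKO and 35.7 kb in WT. In D1240A its edge facing the start site stopped 164.0 kb from the start, against 153.7 kb in F1295A, 153.7 kb in TKO and 153.1 kb in WT. These blocks held all of the 35.9 kb that all 4 forms marked, 31.4% of the 114.2 kb marked in any form. TKO and WT together, without either mutant, marked another 30.7 kb (26.9%).

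Peaks also differed near the PAX5 start site. In D1240A the nearest peak inside the record began 129.7 kb downstream. F1295A had a peak of 12.2 kb that stopped 1.69 kb upstream of the start. Ranked by total signal, the authors' value for a peak, it was at the 21.5th percentile of its list. TKO had a peak of 5.86 kb that began 6.15 kb downstream, at the 25.9th percentile. The WT list was the one of the 4 with a peak on the start site (chr9:37022242-37039673), which ran from 5.41 kb upstream to 12.03 kb downstream, covered all 300 bases of the promoter printed above and stood at the 65.4th percentile. This WT peak, like the TKO peak just described, also covered a start site of LOC105376031. Within 1 kb of a start site, H3K27me3 was present at 1 of the 9 genes in D1240A (4.71% of all genes), 1 in F1295A (5.09%), 2 in TKO (8.58%) and 4 in WT (8.38%). It was present in TKO and not WT at 1 of the 9 genes (1.77% of all genes) and in WT and not TKO at 3 (1.56%), namely PAX5, BCL6 and CD79B, for which both ends of the record stood in for the start. Because the genes were picked with this pair's results in view, that count is a description only.

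**Figure D2:**
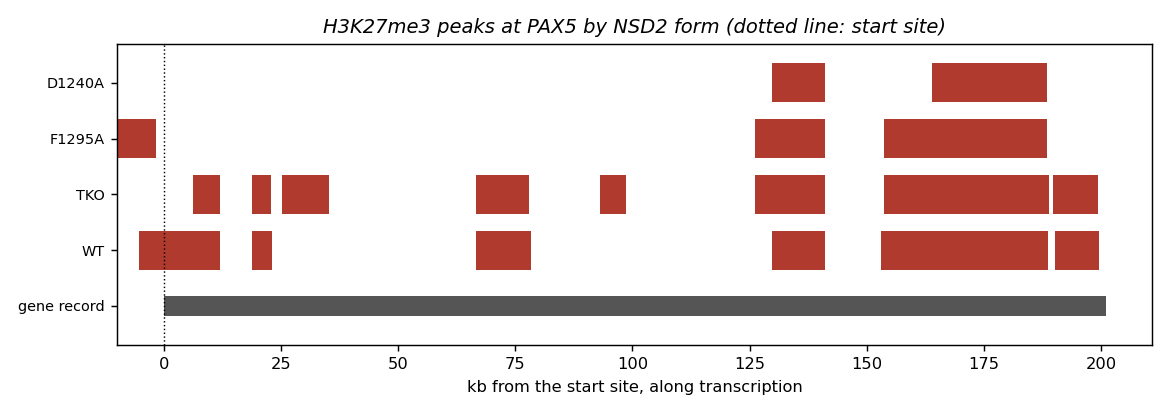
H3K27me3 peaks (red bars) at PAX5 in the D1240A, F1295A, TKO and WT lists, drawn in kb from the start site along the direction of transcription, with the gene record in grey. The 2 wide blocks between 126.1 and 188.8 kb are marked in every form, and the WT bar alone crosses the dotted line of the start site.

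BCL6 (chr3:187721377-187745468, 24.1 kb, minus strand), the repressor that directs the germinal centre reaction, was the one gene of the 9 with both marks in the same form. H3K27me3 length was 0 kb in D1240A, 0 kb in F1295A, 0 kb in TKO and 6.73 kb in WT. The WT peak (chr3:187739234-187745961) covered the outer start site and reached 6.23 kb into the gene, and stood at the 34.8th percentile of its list. A start site of BCL6-AS1 lay under it too. The nearest H3K27me3 peak to the record was 2937 kb away in D1240A, 2934 kb in F1295A and 888 kb in TKO. Of the 948 WT peaks in the same range of ranks, the 25th to the 50th percentile, D1240A overlapped 256, F1295A 291 and TKO 821.

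H3K4me3 at BCL6 was 4.78 kb long in D1240A, 9.26 kb in F1295A, 2.64 kb in TKO and 5.61 kb in WT. Each list had a peak between the 2 start sites of the record, with its highest point 6.86 to 6.96 kb downstream of the outer start in all forms. It stood at the 48.8th percentile in D1240A, the 63.2th in F1295A, the 10.1th in TKO and the 66.7th in WT. F1295A had a further peak of 3.17 kb over the outer start site, at the 2.34th percentile of its list. It also covered a BCL6-AS1 start site. The outer start was thus under neither mark in D1240A and TKO, under H3K4me3 in F1295A and under H3K27me3 in WT. Of the weakest 25% of F1295A H3K4me3 peaks, D1240A overlapped 69.7%, TKO 54.2% and WT 85.6%.

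In WT the BCL6 peaks of both marks shared 3.69 kb, which was 54.9% of the H3K27me3 peak and 65.8% of the H3K4me3 peak. Of all WT H3K27me3 peaks, 4.09% overlapped an H3K4me3 peak. Both marks within a gene's window were seen for 0 of the 9 genes in D1240A, 0 in F1295A, 0 in TKO and 1 in WT, against 3.49%, 4.14%, 6.62% and 6.82% of all genes. Peaks from separate immunoprecipitations on the same bases can lie on the same or on different chromosomes, and these cannot be told apart here.

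**Figure D3:**
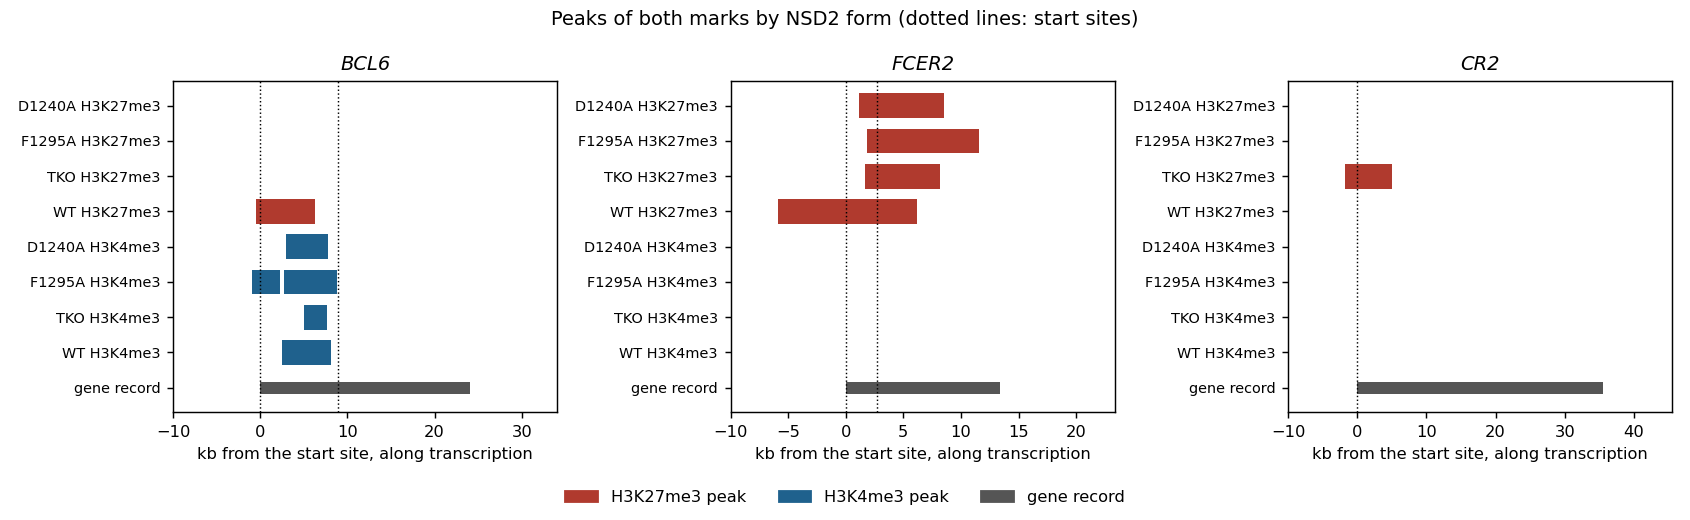
Peaks of H3K27me3 (red) and H3K4me3 (blue) at BCL6, FCER2 and CR2 in each form, in kb from the outer start site along transcription, with the gene record in grey and start sites as dotted lines. At BCL6 the red and blue WT bars overlap, at FCER2 the WT bar alone crosses the outer start, and at CR2 a bar is seen in TKO only.

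FCER2 (chr19:7688776-7702131, 13.4 kb, minus strand) encodes CD23, the low-affinity receptor for IgE on mature B cells, and was under H3K27me3 in every form. Marked length was 7.37 kb in D1240A, 9.77 kb in F1295A, 6.51 kb in TKO and 12.1 kb in WT. All 4 forms marked a shared 4.38 kb, and the inner start site printed above lay inside it in each list. The peaks began 1.16 kb downstream of the outer start site in D1240A, 1.82 kb in F1295A and 1.64 kb in TKO, and in WT the peak covered it and reached 5.88 kb upstream. The WT peak also covered a start site of LOC105372262. F1295A extended farthest into the gene, to 11.6 kb from the outer start, against 8.53 kb in D1240A, 8.15 kb in TKO and 6.20 kb in WT. The FCER2 peak was among the weakest of the D1240A list (1.33th percentile) and low in F1295A (18.8th), and near the middle of the lists of TKO (49.2th) and WT (50th). The lists differ in length, so these percentiles do not compare strength between forms. Counted from the strongest peak, it was number 2160 of 2188 in D1240A, 1693 of 2083 in F1295A, 2987 of 5881 in TKO and 1896 of 3790 in WT.

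CR2 (chr1:207454328-207489892, 35.6 kb, plus strand) encodes CD21, the complement receptor that lowers the threshold of B cell activation. H3K27me3 length was 0 kb in D1240A, 0 kb in F1295A, 6.71 kb in TKO and 0 kb in WT. The TKO peak (chr1:207452590-207459304) ran from 1.74 kb upstream to 4.98 kb downstream of the start and covered the whole printed promoter, at the 46.5th percentile of its list. No other list had a peak nearer than 415 kb. Among TKO peaks from the 25th to the 50th percentile, D1240A overlapped 8.98%, F1295A 10.5% and WT 48.8%. Nearest H3K4me3 peaks were 131 kb away in each form.

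SPIB (chr19:50418938-50431314, 12.4 kb, plus strand), an ETS factor of the PU.1 family, had H3K27me3 beyond its end and none at its start. Marked length in the window was 0 kb in D1240A, 0 kb in F1295A, 5.60 kb in TKO and 10.1 kb in WT. The nearest H3K27me3 peak was 32.3 kb from SPIB in D1240A and 90.8 kb in F1295A. The TKO peak (chr19:50435712-50441847) began 4.40 kb past the record. The WT peak (chr19:50431192-50441841) began 12.3 kb downstream of the start site and met only the last 0.123 kb of the record, and both ended within a few bases of each other. Both lay over MYBPC2, a gene of muscle myosin-binding protein, which shares them. The WT peak stood at the 62.7th percentile, and D1240A overlapped 66.1% and F1295A 72.1% of the WT peaks from the 50th to the 75th.

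CD79B (chr17:63928740-63932331, 3.59 kb), the Ig-beta chain of the antigen receptor, was met in every form by the edge of a wide neighbouring domain. That domain was 44.3 kb wide in D1240A, 44.6 kb in F1295A, 36.0 kb in TKO and 45.1 kb in WT, and it lay over the growth hormone and placental lactogen genes GH1, CSHL1 and CSH1, and over GH2 in all forms but TKO. It ended 8.79 kb short of the CD79B record in D1240A, 8.78 kb in F1295A, 9.36 kb in TKO and 8.16 kb in WT. In TKO just 0.644 kb of it lay in the window, so the CD79B call there ended where 1 kb of peak was required. It ranked high, at the 88.1th, 87.6th, 95.7th and 93.6th percentile of those lists in the same order. On CD79B itself there was a peak in WT only (chr17:63931817-63936474), 4.66 kb wide against 1.84 kb of the domain in the WT window. It covered 0.515 kb or 14.3% of the record, and it was near the bottom of the WT list (0.660th percentile). Of the weakest 25% of WT peaks, D1240A overlapped 8.66%, F1295A 13.7% and TKO 75.6%.

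CIITA (chr16:10866206-10943021, 76.8 kb), the master activator of MHC class II genes, carried H3K4me3 in every form and no H3K27me3. Marked length was 11.7 kb in D1240A, 14.1 kb in F1295A, 10.2 kb in TKO and 14.0 kb in WT, in 2 peaks each. The forms stood in the same order as in the coverage of the whole H3K4me3 lists. The inner peak lay within the record, its lower edge 10.2 kb from the lower end of the record in D1240A, 9.94 kb in F1295A, 9.98 kb in TKO and 10.3 kb in WT. It stood at the 82.6th percentile in D1240A, the 85.3th in F1295A, the 88.4th in TKO and the 68.5th in WT, so WT ranked lowest of the 4 lists. CIITA is known to use several promoters, and which of them the inner peak covers was not read from the gene table. The other peak, at the 92.4th to 94.5th percentile, crossed the higher end of the record and covered the start sites of the neighbouring genes DEXI and CLEC16A, so it cannot be assigned to CIITA.

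BACH2 (chr6:89926528-90296843, 370.3 kb, minus strand), a repressor that delays plasma cell differentiation by acting on PRDM1, had a single H3K4me3 peak over its start site in every form. That peak also covered start sites of LOC105377891 and LOC124901361 in every form. Its width was 3.80 kb in D1240A, 5.51 kb in F1295A, 3.85 kb in TKO and 3.80 kb in WT. The ranks were close, at the 59.9th, 65.2th, 61.6th and 63.5th percentile in the same order. The highest point lay 0.942 kb downstream of the start in D1240A, 0.832 kb in F1295A, 1.41 kb in TKO and 0.845 kb in WT. All 4 forms shared 3.31 kb, 60.0% of the bases marked in any form, and every list covered all 300 bases of the CpG-dense promoter printed above. The nearest H3K27me3 peak was 45633 kb away in both mutants, 17520 kb in TKO and 17521 kb in WT.

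**Figure D4:**
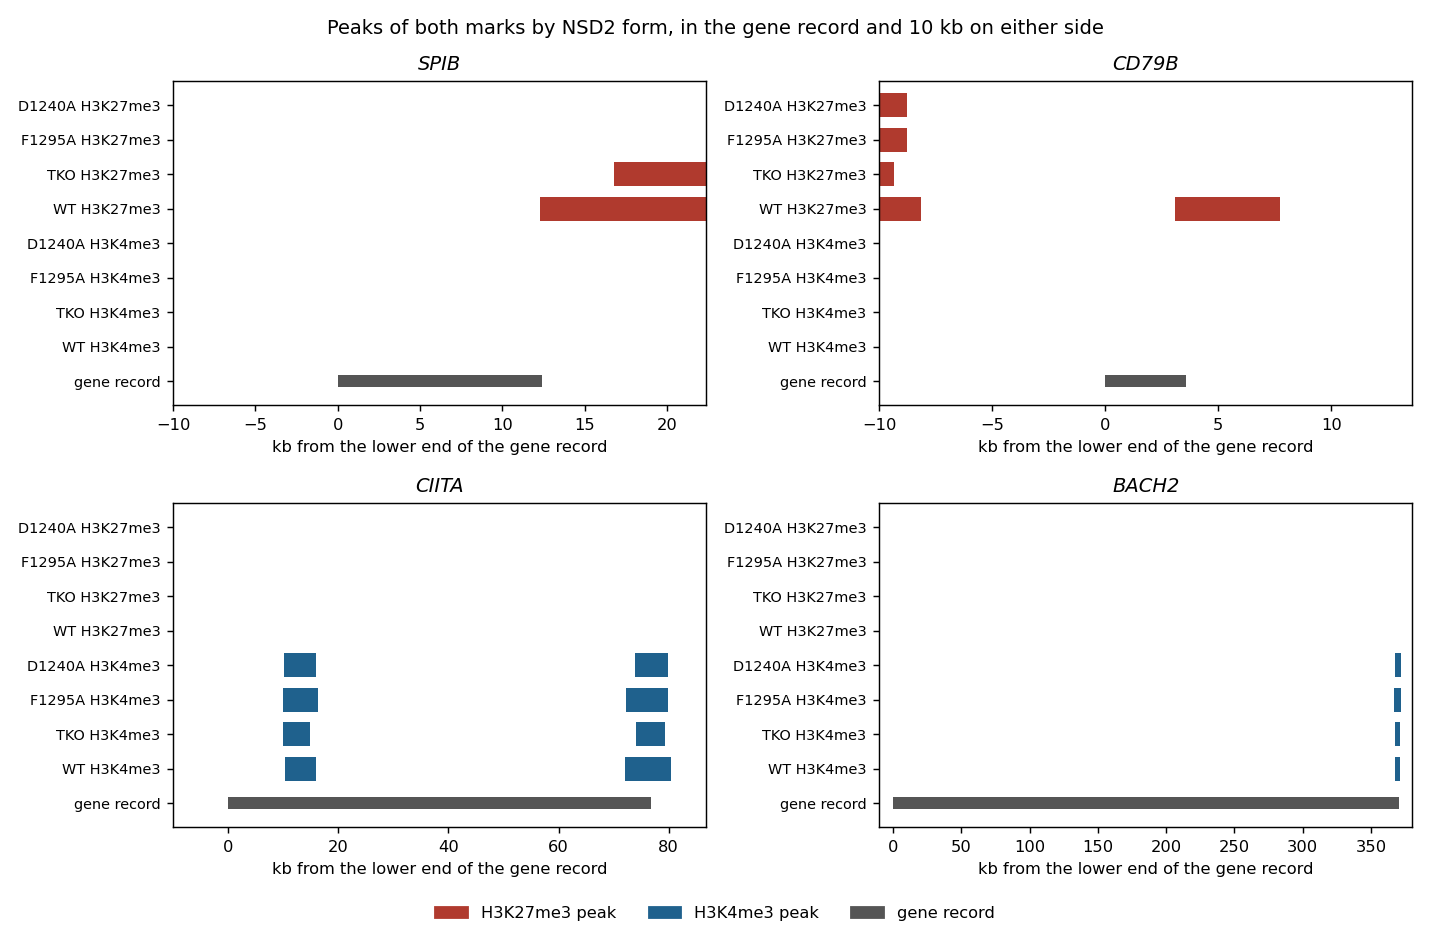
Peaks of H3K27me3 (red) and H3K4me3 (blue) at SPIB, CD79B, CIITA and BACH2 in each form, in kb from the lower end of the gene record (grey), cut at 10 kb on either side. The red bars at SPIB and CD79B lie mostly outside the records, and the blue bars at CIITA and BACH2 keep their places in all 4 forms.

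MS4A1 (chr11:60455847-60470752, 14.9 kb) encodes CD20, the target of antibody treatment of B cell disease, and had no peak of either mark in any form. The nearest H3K27me3 peak was 462 kb away in D1240A, 453 kb in F1295A, 286 kb in TKO and 319 kb in WT. Nearest H3K4me3 peaks lay 370 to 371 kb away. A gene with no peak in all 8 lists was common, at 7147 of 19970 genes (35.8%).

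**Figure D5:**
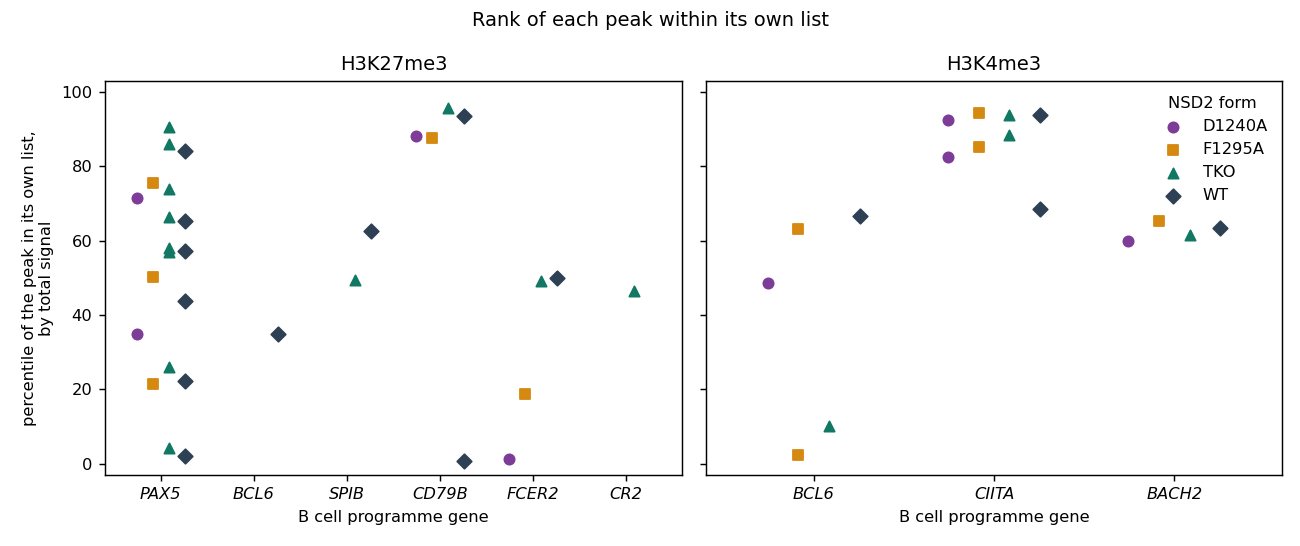
Percentile by total signal of each peak within its own list, for the B cell programme genes that had one, with H3K27me3 on the left and H3K4me3 on the right and a symbol per form. The FCER2 peak is low in D1240A and F1295A and near 50 in TKO and WT, and the BACH2 peaks lie between 59.9 and 65.2 in all 4 lists. Lists differ in length, so an equal percentile is not an equal place from the top.

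Set against WT, each other form differed in H3K27me3 at 2 of the 9 genes. BCL6 and SPIB had it in WT and not D1240A (6.89% of all genes), and in WT and not F1295A (6.41%). None of the 9 had it in D1240A and not WT (0.145%), or in F1295A and not WT (0.235%). CR2 had it in TKO and not WT (4.35%), and BCL6 had it in WT and not TKO (2.04%). All of these comparisons share the WT list. With the 2083 strongest peaks of each list, BCL6 and CR2 had no H3K27me3 peak in any form. FCER2 kept one in F1295A and WT only, and SPIB in WT only. PAX5 and CD79B were met in all 4 forms. CD79B was met there only by the edge of the neighbouring domain, since the WT peak on the gene itself dropped out. H3K4me3 presence differed at 0 of the 9 genes for D1240A against WT (2.68% of all genes), F1295A against WT (2.21%) and TKO against WT (4.51%). Within 1 kb of a start site, BCL6 lacked an H3K4me3 peak in D1240A, where 2.24% of all genes had one in WT and not D1240A. It lacked one in TKO too (4.09% for WT and not TKO). In WT this call rested on the inner start, 0.817 kb from the peak. The matching peak lay 1.24 kb from that start in D1240A and 1.28 kb in TKO, just beyond the 1 kb limit.

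A wider list of 56 B cell genes, the 9 included, was read in the same way. H3K27me3 met 8 of them in D1240A (9.36% of all genes), 10 in F1295A (9.93%), 17 in TKO (18.4%) and 14 in WT (16.1%). H3K4me3 met 17 in D1240A (49.2%), 17 in F1295A (52.1%), 16 in TKO (47.5%) and 17 in WT (51.4%). Among the other 47 genes, the H3K27me3 counts were 5, 7, 12 and 9 in the same order, to be read against the same shares of all genes. By role, H3K27me3 met 5 of 14 surface receptor genes in D1240A, 6 in F1295A, 7 in TKO and 7 in WT. Of 12 genes of the antigen receptor and its signalling it met 2, 3, 6 and 3, and of 16 B cell factors 1, 1, 4 and 4. It met 0 of 5 germinal centre genes and 0 of 9 MHC class II genes in any form, where 79.5% of all genes had none. H3K4me3 was at 0 of the 14 surface receptor genes in any form, where 47.0% of all genes had none. CD22, CD40, CXCR5, CCR7 and FCGR2B, which encode receptors of B cell signalling, T cell help and migration, shared the presence pattern of PAX5, CD79B and FCER2 in all 8 lists, a pattern found in 1002 genes (5.02%). Across the forms H3K27me3 in their windows covered 18.1 to 25.3 kb at CD22, 12.5 to 21.3 kb at CD40, 8.61 to 11.04 kb at CXCR5, 12.2 to 21.5 kb at CCR7 and 7.97 to 28.3 kb at FCGR2B. Within 1 kb of a start site, CD40 and CCR7 had it in every form, and CD22, CXCR5 and FCGR2B in TKO only. Whether neighbouring genes share these peaks was not examined. SPI1, the gene of PU.1, shared the pattern of SPIB, one of 398 such genes. CR1, the receptor gene beside CR2, shared its TKO-only pattern with PLCG2, SYK and BLK, kinases and a phospholipase of antigen receptor signalling, among 464 genes. CR1 had 2.74 kb in TKO, and PLCG2 had 15.8 kb. No other gene of the list had the pattern of BCL6, which 190 genes (0.951%) had.

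H3K27me3 was in WT and not D1240A at TNFRSF13C (6.12 kb in WT), the BAFF receptor gene, and at FCRLA (4.19 kb in WT). FCRLA had more of it in F1295A (5.83 kb) and TKO (9.70 kb). TNFRSF13C also lacked it in F1295A and TKO, like BCL6, but had no H3K4me3 in any form. CD37 was met by 0.262 kb in WT and 0.280 kb in F1295A, and not in TKO or D1240A. Of the 9 MHC class II genes, the targets of CIITA, CD74 was the single one with H3K4me3, with 4.51 kb in D1240A, 4.47 kb in F1295A, 3.99 kb in TKO and 4.44 kb in WT. POU2AF1, a coactivator used by B cells and plasma cells alike, was the single gene of the 56 whose H3K4me3 presence differed from WT in another form, with 4.71 kb in D1240A, 4.36 kb in F1295A, 0 kb in TKO and 4.22 kb in WT. Of the 16 B cell factors, 9 had H3K4me3 in every form (46.6% of all genes), namely BCL6, CIITA, BACH2, IKZF3, ETS1, MEF2C, TCF3, KLF2 and STAT6. Another 6 had it in none (47.0%), namely PAX5, SPIB, EBF1, SPI1, IRF8 and ID3. IKZF3, a factor that plasma cells also use, had 18.0 kb in D1240A, 20.9 kb in F1295A, 5.69 kb in TKO and 22.9 kb in WT. The whole H3K4me3 list of TKO also covered the least of the lists of that mark.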

How the data were processed

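The submitters' processing notes name Bowtie2 2.4.5, SEACR 1.3, Trimmomatic 0.36 and FastQC 0.11.4, and the genome build GRCh38. SEACR is a peak caller, whose mode, control and threshold no source used here gives. The deposited lists give a total and a highest signal for each peak, left here as the authors deposited them, with no stated scaling. The labels send both H3K27me3 samples of a form to 1 list. Highest signal moved in steps of 0.5 there, and how the samples were combined is unknown. Signal was used only to rank peaks within a list.

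Gene records and promoter windows came from RefSeq GRCh38.p14. Presence, marked bases and distances were computed in Python 3.11.15 with numpy 2.4.6 and pandas 2.3.3, and figures were drawn with matplotlib 3.10.9. A percentile of 100 is the strongest peak of its list by total signal. Lists differ in length, so percentiles do not compare strength between forms. Start sites came from the promoter table, which covered 15812 of the genes, and both record ends were used for the other 4158. The table gives no exons, so positions within a record were not assigned to exons or introns. The 9 genes and the wider lists were chosen with earlier results of these data known. Named genes were all 9, the wider list genes that differed from WT in order of marked length, up to 4 each, those sharing a member's pattern, and 5 plasma cell controls. DEXI, CLEC16A, CD74, IKZF3, ETS1, MEF2C, TCF3, KLF2, STAT6, EBF1, IRF8, ID3, SLAMF7, LYZ and CD14 were named after their values were seen. So were CSF1R, S100A8, BCL6-AS1 and the genes with LOC names. Marked bases were recovered exactly in 4000 of 4000 simulated windows. Depth is unknown, so no interval was set on any value.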

Additional observations from a re-analysis of the deposited data

How the results depend on the processing

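In all, 70 counts were recomputed under 5 alternatives, and 53 stayed within 1.5 times their main value. This compares counts only, and the genes behind a similar count could change. TKO and WT differed at BCL6 and CR2 in the main setting, and at SPIB and FCER2 with equal peak numbers. D1240A and WT differed at BCL6 and SPIB in the main setting. Within 1 kb of a start site they differed at PAX5, BCL6 and CD79B. The counts that moved follow. With the gene record alone, TKO had H3K27me3 at 3 of the 9 genes, since SPIB and CD79B were met only in their flanks, and TKO and WT differed at 4. Within 1 kb of a start site, H3K27me3 was at 1 gene in D1240A, 1 in F1295A and 2 in TKO, TKO and WT differed at 4, and H3K4me3 differed at 1 for D1240A and 1 for TKO against WT. That H3K4me3 difference was BCL6, whose peak in D1240A and TKO lay just beyond the limit. With the stronger 50% of each list, H3K27me3 was at 2 genes in TKO and 3 in WT, it differed from WT at 1 gene in D1240A, 1 in F1295A and 1 in TKO, and H3K4me3 differed at 1 in D1240A and 1 in TKO. With equal peak numbers, H3K27me3 was at 2 genes in TKO, and F1295A and WT differed at 1. Asking for 1 kb of peak in the window moved no count by more than 1.5 times, but ended the CD79B call in TKO. BCL6 and CR2 lost their H3K27me3 call under the stronger 50% and under equal peak numbers, and FCER2 lost it in every form under the stronger 50%. No paired analysis was possible because both H3K27me3 samples of a form stand in a single list and H3K4me3 has 1 sample per form, so leaving out a replicate was not run either. The unknown depth limits every statement that a peak was absent.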
